A study of Homo sapiens with 6 samples.

Results

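Cholesterol is built from acetyl-CoA in a chain of enzymes. The early steps make mevalonate and isoprenoid units, and the late steps join these into squalene and reshape it into sterols. The genes of the chain are switched on by SREBP2, a transcription factor made as a membrane protein of the endoplasmic reticulum. When sterols are scarce, the escort protein SCAP carries SREBP2 to the Golgi, where site-1 and site-2 proteases release its active part. When sterols are plentiful, INSIG proteins hold SCAP back. In the brain cholesterol is made locally, since lipoproteins of the blood do not cross into it.

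The 27 genes described here were selected by name in a deposited table of 58884 genes, and each symbol was found once. They comprised 7 early enzymes (ACAT2, HMGCS1, MVK, PMVK, MVD, IDI1 and FDPS), GGPS1 of the isoprenoid branch, and 12 late genes (FDFT1, SQLE, LSS, CYP51A1, TM7SF2, MSMO1, NSDHL, HSD17B7, EBP, SC5D, DHCR7 and ERG28). The other members were 6 genes of SREBP2 control (SREBF2, SCAP, INSIG1, INSIG2, MBTPS1 and MBTPS2) and the sterol carrier STARD4. They do not cover every gene of the pathway.

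RNA was sequenced from DBTRG cells, an established human glioblastoma line of wild-type genotype per the labels. Cells were cultured for 5 days as a 3D culture in soft gel (3 libraries) or as a 2D culture on a rigid dish (3 libraries), and the study compared these conditions. The material and stiffness of the gel are not given in the sources used here, and both groups come from 1 line. The labels do not state that the libraries of a group are independent cultures, so the p-values measure the spread between libraries, which may be technical.

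Library totals were 20911363 to 24135884 counts in soft gel and 23944278 to 25901499 counts on the rigid dish. Libraries of the same group correlated at 0.975 to 0.987 and libraries of different groups at 0.949 to 0.969 (Pearson, log2 CPM, counts scaled to library size, across genes, which are not independent replicates). Of the glioma line markers, VIM lay at 2085 to 2357 TPM (transcript abundance scaled for gene length and library) in soft gel and 2805 to 3046 TPM on the rigid dish. CD44 lay at 2586 to 2636 TPM in soft gel and 2032 to 2313 TPM on the rigid dish. Of 7 line markers tested, 2 were called higher in soft gel and 3 lower. SOX2 and CD44 were higher, at log2 fold changes of 0.59 and 0.33 (edgeR adjusted p = 0.00509 and 0.0371). VIM, NES and EGFR were lower, at -0.48, -0.56 and -0.6 (edgeR adjusted p = 0.0172, 0.0211 and 0.00574). S100B was not called. SOX2 and EGFR kept their calls in all 6 fits that left out 1 library, VIM and NES in 3 and CD44 in 1. The astrocyte marker GFAP lay at 0.38 to 1.36 TPM in soft gel and 0.32 to 0.89 TPM on the rigid dish, and OLIG2 was listed at 0 in all 6 libraries. Summed over 4 markers, leukocyte genes reached 0.7 to 1.43 TPM in soft gel and 0.03 to 1.85 TPM on the rigid dish, with all 4 below 1 TPM in every library. One of them, ITGAM, was called higher, with 22, 31 and 19 counts in soft gel and 8, 2 and 3 counts on the rigid dish (log2 fold change 2.49, edgeR adjusted p = 0.00841). The 3 endothelial markers summed to 0.03 to 0.99 TPM in soft gel and 0.01 to 0.43 TPM on the rigid dish, and the 2 epithelial markers to at most 0.26 TPM in soft gel and 0.24 TPM on the rigid dish. The 3 neuron markers summed to 4.69 to 8.14 TPM in soft gel and 8.07 to 10.7 TPM on the rigid dish, most of it SNAP25. The part of these markers in the results was not tested. In bulk RNA, fewer cells that use a gene and less of its RNA per cell cannot be told apart.

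All 27 members passed the low-count filter. In soft gel 11 of them were higher than on the rigid dish and 0 were lower (edgeR quasi-likelihood test, Benjamini-Hochberg adjusted p below 0.05 over 16098 genes). Over all genes tested, 15.4% were called higher and 13.2% lower (28.6% in either direction). The 11 were HMGCS1 and IDI1 of the early steps, SQLE, CYP51A1, TM7SF2, MSMO1, HSD17B7 and SC5D of the late steps, INSIG2 and MBTPS2 of SREBP2 control, and STARD4. The median log2 fold change (soft gel over rigid dish) was 0.38 over the members and 0.05 over all genes tested. With DESeq2, 10 members were higher and 1 was lower, where of 29366 genes 7.89% were higher and 2736 genes were lower. In the edgeR test 16 members missed the threshold in all (11 of these with a positive log2 fold change).

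The number called higher depended on single libraries. It fell to 6 without rigid dish 2 and to 5 without soft gel 2, and lay between 9 and 12 on leaving out any of the other 4 libraries. Of all genes, 6.54% were called higher without rigid dish 2, 6.13% without soft gel 2, and 6.67% to 19.6% in the other 4 fits. The called members HMGCS1, IDI1, CYP51A1, MSMO1 and SC5D passed in all 6 fits that left out 1 library and in all 9 other alternatives. On the deposited TPM values, 7 members were higher, where 8.36% of all genes with log2(TPM + 1) and 8.24% with log2(TPM + 0.1) were called higher. In the authors' deposited table, at an adjusted p below 0.05, the higher members numbered 10 and the lower 1, FDPS, and 7.89% of the 29318 genes tested there were higher. The significance column of the authors' deposited table marks only MSMO1 and SC5D among the 27 members, and not FDPS. In TPM, every soft gel library was above every rigid dish library for 19 members (21.3% of all genes tested) and below for 3 (15.9% of all genes tested).

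**Figure D1:**
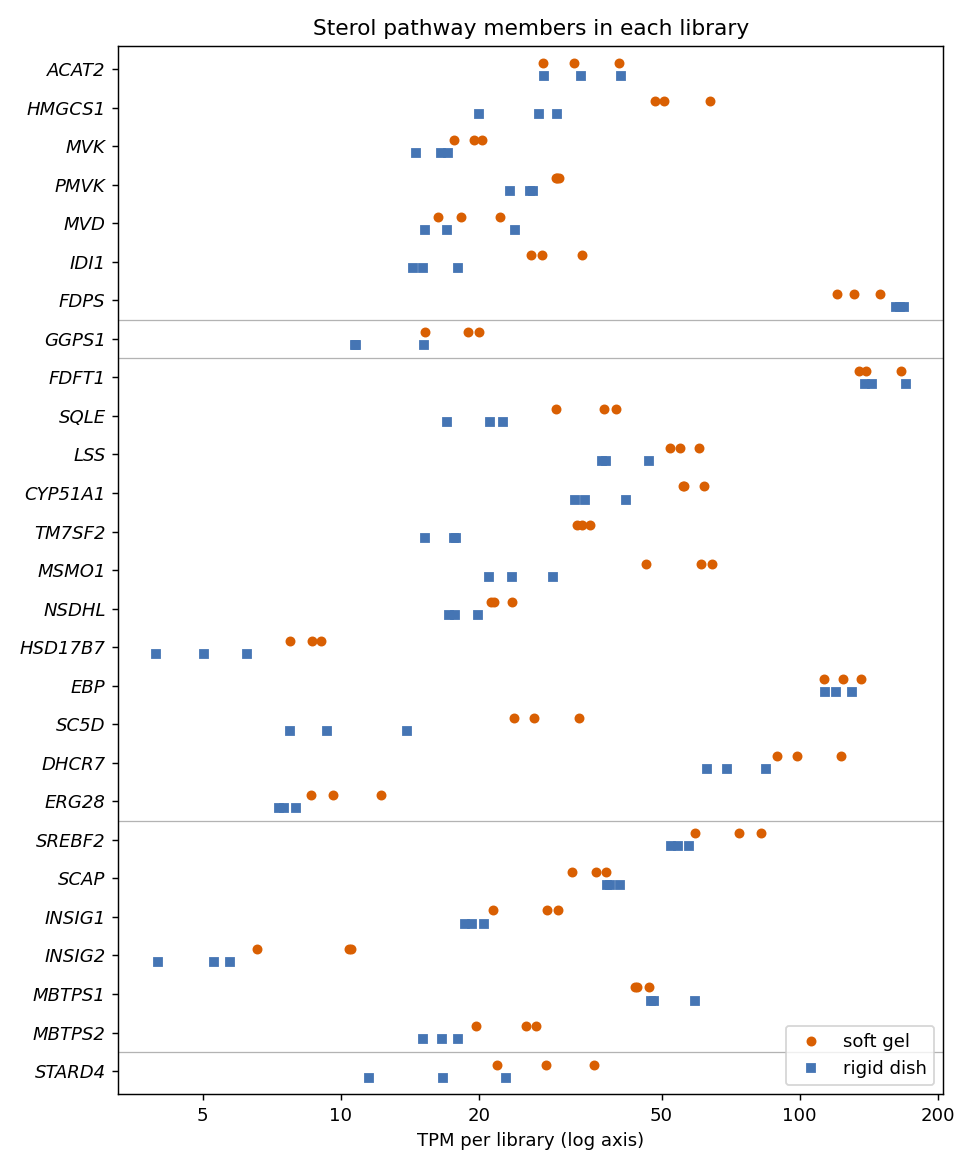
TPM of each of the 27 members in each library, on a log axis, with soft gel libraries as circles above the rigid dish libraries as squares, and lines between the early, branch, late, control and carrier groups. The circles lie right of the squares without overlap for 19 members, left of them for FDPS, SCAP and MBTPS1, and overlap for 5.

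Of the early enzymes, 2 rose and 5 did not pass (15.4% of all genes tested were called higher). HMGCS1, the synthase that makes HMG-CoA, had 48.4, 63.7 and 50.7 TPM in soft gel, against 29.6, 26.99 and 20.02 TPM on the rigid dish. Every soft gel library was above every rigid dish library. The log2 fold change was 0.94 (SE 0.162, adjusted p = 0.00423 by edgeR). The gene lies on hg38 chromosome 5, 43289395 to 43313512, minus strand. Exons of 14 of the 27 members overlap another annotated gene.

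IDI1, the isomerase that converts isopentenyl diphosphate into its reactive isomer, had 26, 33.5 and 27.4 TPM in soft gel and 18.0, 15.1 and 14.4 TPM on the rigid dish. The groups did not overlap, and the log2 fold change was 0.87 (SE 0.13, adjusted p = 0.00255 by edgeR). IDI1 (chromosome 10, 1039152 to 1049170, minus strand) shares exon sequence with IDI2-AS1 on the opposite strand. No strand setting is given in the sources used here, so their reads cannot be told apart.

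The kinases MVK and PMVK, which phosphorylate mevalonate in turn, did not pass. MVK averaged 19.2 ± 1.36 TPM in soft gel and 16.1 ± 1.32 TPM on the rigid dish (SD, n = 3 each), and PMVK 29.6 ± 0.28 TPM in soft gel and 25.1 ± 1.52 TPM on the rigid dish. Their log2 fold changes were 0.24 and 0.15 (edgeR adjusted p = 0.177 and 0.447). In both, the TPM of the groups did not overlap although the count test was not passed. MVD, the decarboxylase of the next step, averaged 18.9 ± 3.03 TPM in soft gel and 18.8 ± 4.64 TPM on the rigid dish, with overlapping groups.

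FDPS, which joins isoprenoid units into farnesyl diphosphate, was the member with the most negative value. Its TPM was 132, 121 and 149 in soft gel and 162, 166 and 169 on the rigid dish. All soft gel libraries were below all rigid dish libraries, yet the log2 fold change of -0.42 (SE 0.143) missed the threshold (edgeR adjusted p = 0.0547). FDPS was called lower with DESeq2 size factors, no low-count filter, the DESeq2 test, a replicate block, and without rigid dish 1 or soft gel 3 (edgeR or DESeq2 adjusted p = 0.00687 to 0.047). GENCODE lists 8 FDPS pseudogenes, so the counting may have split its reads.

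ACAT2, which condenses acetyl-CoA at the entry of the chain, had 27.6, 32.3 and 40.4 TPM in soft gel and 40.8, 33.3 and 27.8 TPM on the rigid dish. The groups overlapped, with a log2 fold change of -0.14 (SE 0.138, adjusted p = 0.449 by edgeR). ACAT2 was called lower without soft gel 3 (edgeR adjusted p = 0.0411). GGPS1, which makes geranylgeranyl diphosphate for protein prenylation, averaged 18.1 ± 2.48 TPM in soft gel and 12.2 ± 2.56 TPM on the rigid dish (SD, n = 3 each). Its log2 fold change was 0.41 (edgeR adjusted p = 0.0628). GGPS1 was called higher with a replicate block and without rigid dish 1 or soft gel 3 (edgeR adjusted p = 0.0299, 0.0485 and 0.0361).

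In the late steps 6 of 12 genes rose and 0 fell (15.4% and 13.2% of all genes tested). FDFT1, the squalene synthase that opens this branch, had overlapping groups, at 147 ± 16.9 TPM in soft gel and 151 ± 17 TPM on the rigid dish (SD, n = 3 each). SQLE, the squalene epoxidase that follows it, had 29.5, 39.7 and 37.6 TPM in soft gel and 22.6, 21.2 and 17.1 TPM on the rigid dish. All SQLE values were higher in soft gel, and the log2 fold change was 0.68 (SE 0.15, adjusted p = 0.0115 by edgeR). Without rigid dish 2 or soft gel 2 this call was lost (highest edgeR adjusted p = 0.059).

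LSS, which cyclizes the epoxide into lanosterol, had 52.1, 54.7 and 60.4 TPM in soft gel and 46.9, 37.1 and 37.8 TPM on the rigid dish. The groups did not overlap, but the count test missed the threshold (log2 fold change 0.35, SE 0.121, edgeR adjusted p = 0.0552). LSS was called higher with upper quartile factors, the 1 CPM filter and a replicate block (edgeR adjusted p = 0.0159 to 0.0437). CYP51A1, the lanosterol demethylase, had 56.1, 61.9 and 55.8 TPM in soft gel and 41.8, 34.0 and 32.4 TPM on the rigid dish. It was higher in every soft gel library, with a log2 fold change of 0.64 (SE 0.104, adjusted p = 0.00354 by edgeR). GENCODE lists 3 CYP51A1 pseudogenes and an antisense gene that overlaps its exons. AC000120.2 and AC000120.3 overlap its exons on the same strand, so some reads could belong to these genes.

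TM7SF2, a sterol reductase, had 32.6, 33.5 and 34.9 TPM in soft gel and 15.3, 17.8 and 17.7 TPM on the rigid dish. The log2 fold change was 0.89 (SE 0.208, adjusted p = 0.014 by edgeR), and the call was lost without rigid dish 2 or soft gel 2 (highest edgeR adjusted p = 0.0617). Its exons overlap those of VPS51 on the same strand of chromosome 11, so some reads could belong to either gene.

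MSMO1, the sterol methyl oxidase, was among the members that rose most. It had 46.2, 64.5 and 60.8 TPM in soft gel and 29.1, 23.7 and 21.04 TPM on the rigid dish, with soft gel 1 the lowest of its group and still above every rigid dish library. The log2 fold change was 1.16 (SE 0.152, adjusted p = 0.00145 by edgeR). NSDHL, the dehydrogenase that works with MSMO1, averaged 22.1 ± 1.31 TPM in soft gel and 18.3 ± 1.42 TPM on the rigid dish (SD, n = 3 each) and did not pass (log2 fold change 0.22, edgeR adjusted p = 0.228).

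HSD17B7, the ketoreductase of the same demethylation cycle, was the least abundant enzyme. It had 9.05, 8.66 and 7.75 TPM in soft gel and 6.25, 3.95 and 5.04 TPM on the rigid dish. The groups did not overlap, and the log2 fold change was 0.97 (SE 0.218, adjusted p = 0.0122 by edgeR). The call was lost without rigid dish 2 or soft gel 2 and on TPM values, and 2 pseudogenes of HSD17B7 make its separate level uncertain. ERG28, a protein that holds these demethylating enzymes together in yeast, averaged 10.2 ± 1.88 TPM in soft gel and 7.61 ± 0.327 TPM on the rigid dish (SD, n = 3 each, edgeR adjusted p = 0.178).

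The final steps were uneven. EBP, the sterol isomerase, had 125, 113 and 136 TPM in soft gel and 130, 114 and 120 TPM on the rigid dish, with overlapping groups. Its log2 fold change was 0.01, and the sign turned under 6 of the alternatives. SC5D, the sterol desaturase that follows EBP, had 26.3, 33.0 and 23.8 TPM in soft gel and 13.9, 9.32 and 7.74 TPM on the rigid dish. All soft gel values were higher, and the log2 fold change of 1.17 (SE 0.169, adjusted p = 0.00224 by edgeR) was close to that of MSMO1, and MSMO1 was the larger when any of rigid dish 2, rigid dish 3, soft gel 1 and soft gel 2 was left out.

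DHCR7, the reductase that completes cholesterol, had 89.5, 98.7 and 123 TPM in soft gel and 62.9, 69.6 and 84.4 TPM on the rigid dish. The groups did not overlap in TPM, but the log2 fold change of 0.43 (SE 0.202) did not pass (edgeR adjusted p = 0.132).

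**Figure D2:**
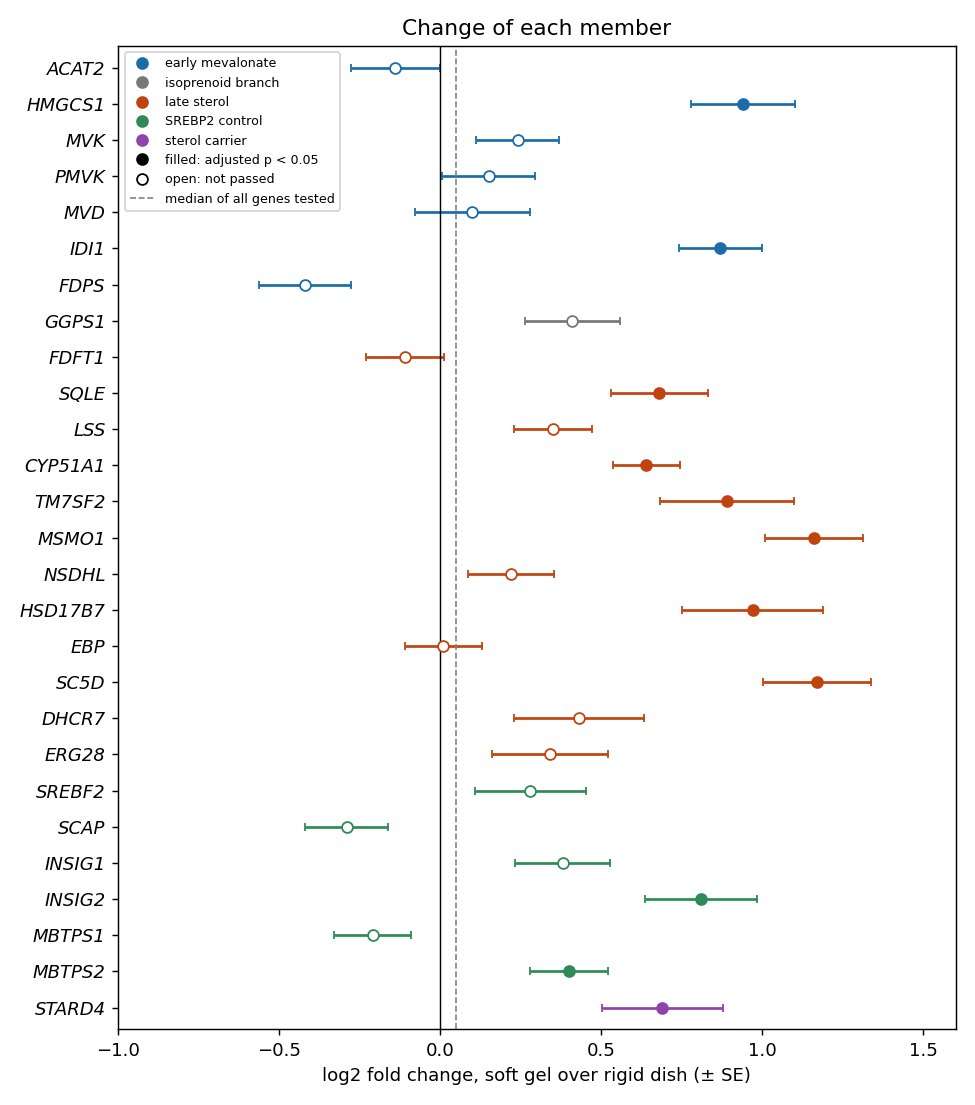
Log2 fold change of each member, soft gel over rigid dish, with its SE as a bar, from edgeR's quasi-likelihood fit on the counts of 3 libraries per group. Filled points are the 11 members with an adjusted p below 0.05, all of them right of 0, and the dashed line is the median of all genes tested (0.05).

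Early and late steps were then set side by side. The early group had 2 of 7 genes called higher and a median log2 fold change of 0.15, and the late group 6 of 12 and a median of 0.54. Of all genes tested 15.4% were called higher, with a median of 0.05. The difference of the medians (late minus early) was 0.38, and it ran from 0.32 to 0.42 under the 15 alternatives. As the members were proposed with results of these data known, no test of this difference was made.

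The same contrast was visible per library. The geometric mean of the 12 late genes was 37.8, 41.5 and 43.0 TPM in soft gel and 29.2, 25 and 24.9 TPM on the rigid dish. For the 7 early genes it was 32.5, 36.8 and 37.7 TPM in soft gel and 30.7, 28.1 and 27.7 TPM on the rigid dish. In these TPM means the groups did not overlap in either. On TMM-scaled counts, the median log2 ratio to the rigid dish mean was also taken per library. For the early genes it was 0.08, 0.15 and 0.3 in soft gel. On the rigid dish it was -0.13, -0.05 and 0.12, so the early groups overlapped. For the late genes it was 0.25, 0.55 and 0.68 in soft gel. On the rigid dish it was -0.04, -0.04 and 0.1, without overlap. The log2 ratio of the late to the early geometric mean was 0.22, 0.18 and 0.19 in soft gel and -0.07, -0.17 and -0.15 on the rigid dish. By geometric mean the late genes were thus above the early ones in all 3 soft gel libraries and below them in all 3 rigid dish libraries.

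**Figure D3:**
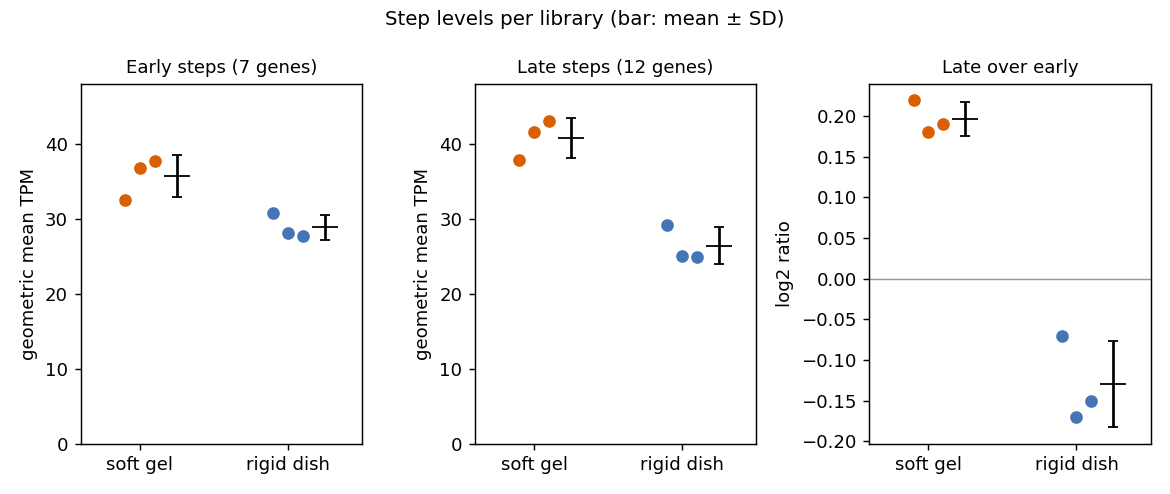
Geometric mean TPM of the 7 early and 12 late genes and the log2 ratio of late to early, per library, with the mean ± SD of 3 libraries as a black bar. The ratio is 0.18 to 0.22 in soft gel and -0.17 to -0.07 on the rigid dish.

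Summed TPM showed the early steps differently, because FDPS made up much of the sum. The early sum was 297, 318 and 340 TPM in soft gel and 310, 297 and 296 TPM on the rigid dish, and the groups overlapped. The late sum was 631, 679 and 743 TPM in soft gel and 567, 499 and 508 TPM on the rigid dish, without overlap.

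On the rigid dish the most abundant of the 20 enzyme genes, including the scaffold ERG28, were FDPS (166 TPM), FDFT1 (151 TPM), EBP (121 TPM), DHCR7 (72.3 TPM) and LSS (40.6 TPM). None of these 5 passed in the TMM-scaled edgeR fit, although FDPS (lower), LSS (higher) and DHCR7 (higher) were each called under some alternatives. For DHCR7 this was the replicate block alone (edgeR adjusted p = 0.00492). The 8 that rose had rigid dish means of 5.08 to 36.1 TPM (median 18.6) and the 12 that did not pass 7.61 to 166 TPM (median 29.6), so the ranges overlapped.

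SREBP2 control was divided as well, with 2 of 6 genes higher and 0 lower (15.4% and 13.2% of all genes tested). SREBF2, which encodes SREBP2 and is itself a target of it, had 59.3, 73.7 and 82.5 TPM in soft gel and 54.3, 52.5 and 57.4 TPM on the rigid dish. Although the TPM did not overlap, the log2 fold change of 0.28 (SE 0.172) did not pass on the counts (edgeR adjusted p = 0.245). SREBF2 was called higher with a replicate block (edgeR adjusted p = 0.0383). SCAP, the escort protein, had 37.8, 31.9 and 36.0 TPM in soft gel and 40.5, 38.7 and 38.02 TPM on the rigid dish. Its values were lower in every soft gel library, and the log2 fold change of -0.29 (SE 0.129) did not pass (edgeR adjusted p = 0.114). SCAP was called lower without rigid dish 1 (edgeR adjusted p = 0.0374).

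INSIG1, a retention protein whose gene is a target of SREBP2, had 21.5, 28.1 and 29.7 TPM in soft gel and 20.6, 19.3 and 18.7 TPM on the rigid dish. Soft gel 1 lay close to the rigid dish libraries, and the log2 fold change of 0.38 (SE 0.147) did not pass (edgeR adjusted p = 0.0766, and 0.0481 without soft gel 1). INSIG1 was also called higher with a replicate block (edgeR adjusted p = 0.0425). INSIG2, its paralog, had 10.4, 10.5 and 6.56 TPM in soft gel and 5.74, 3.99 and 5.29 TPM on the rigid dish. It rose, with a log2 fold change of 0.81 (SE 0.174, adjusted p = 0.0106 by edgeR), and the call was lost without soft gel 1 or soft gel 2 (highest edgeR adjusted p = 0.0553) and on TPM values. Per library, INSIG2 stood at 0.484, 0.373 and 0.221 of the INSIG1 TPM in soft gel and at 0.279, 0.207 and 0.284 on the rigid dish, and these ranges overlapped.

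MBTPS1, the site-1 protease, averaged 45.0 ± 1.71 TPM in soft gel and 51.6 ± 6.53 TPM on the rigid dish (SD, n = 3 each) and did not pass (log2 fold change -0.21, edgeR adjusted p = 0.207). It was called lower without rigid dish 1 (edgeR adjusted p = 0.04). MBTPS2, the site-2 protease, had 26.6, 25.3 and 19.7 TPM in soft gel and 18.0, 16.7 and 15.1 TPM on the rigid dish, and rose (log2 fold change 0.40, SE 0.122, edgeR adjusted p = 0.0361). This was the least stable call, kept in 2 of the 6 fits that left out 1 library (edgeR adjusted p up to 0.157) and in 5 of the 9 other alternatives. The YY2 gene lies within MBTPS2 on the same strand.

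STARD4, a soluble carrier that moves sterol between membranes, had 28.0, 35.6 and 21.9 TPM in soft gel and 22.9, 16.7 and 11.5 TPM on the rigid dish. Rigid dish 1 lay above soft gel 3, so the groups overlapped in TPM. On the counts the log2 fold change was 0.69 (SE 0.188, adjusted p = 0.0253 by edgeR), and the call was lost on TPM values and on omitting any of rigid dish 2, rigid dish 3, soft gel 1 and soft gel 2 (edgeR adjusted p up to 0.111). STARD4-AS1 overlaps its exons on the opposite strand.

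**Figure D4:**
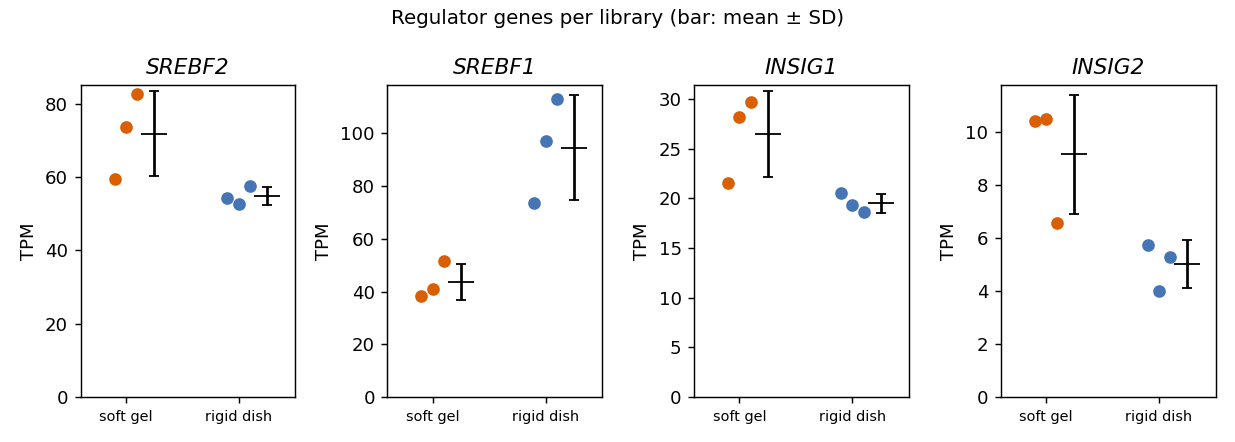
TPM of SREBF2, SREBF1, INSIG1 and INSIG2 per library, with the mean ± SD of 3 libraries per group as a black bar. SREBF1 is lower in all 3 soft gel libraries than in any rigid dish library, and SREBF2, INSIG1 and INSIG2 are higher in all 3.

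SREBP2 binds sterol regulatory elements, often beside CCAAT boxes bound by NF-Y. RefSeq promoter windows (GRCh38.p14, 250 bases before to 50 bases after a gene start, some genes with several windows) were held for 24 members, in 32 windows, but not for ACAT2, FDFT1 or SQLE. The motif TCACNCCAC, searched on both strands, was in 1 of the 32 windows, that of SREBF2, and in 1.13% of all 35116 windows. The motif CCAAT, on both strands, was in 20 of the 32 member windows and in 34.6% of all windows. The GC box GGGCGG, on both strands, was in 27 of the 32 member windows and in 45.0% of all windows. The E-box CACGTG was in 5 of the 32 member windows and in 7.26% of all windows. For 26 of the 32 member windows, the last 30 bases lay in a GENCODE transcript of the gene. Of the 24 members with a window 18 had CCAAT. Among the 10 called members with a window, 7 had CCAAT and 0 had TCACNCCAC. Only this string was searched, so a missing match does not show that a sterol regulatory element is absent. The window of SREBF2 (chr22:41832855-41833154, plus strand) is printed as the only one with both TCACNCCAC and CCAAT, which are in capitals. The TCACNCCAC match, TCACCCCAC, begins 133 bases before the start, and a CCAAT match on the opposite strand begins 106 bases before it.
SREBF2: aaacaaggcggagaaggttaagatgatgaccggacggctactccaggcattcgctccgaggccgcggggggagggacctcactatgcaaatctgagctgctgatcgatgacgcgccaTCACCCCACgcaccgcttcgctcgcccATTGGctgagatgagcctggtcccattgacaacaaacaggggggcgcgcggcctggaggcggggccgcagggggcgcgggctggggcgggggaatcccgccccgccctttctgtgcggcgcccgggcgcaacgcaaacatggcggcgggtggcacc

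The windows of the 3 called members with the largest log2 fold changes and a window are printed for comparison, a choice made after their values were seen. They are SC5D (chr11:121292521-121292820), MSMO1 (chr4:165327419-165327718) and HSD17B7 (chr1:162790452-162790751), all on the plus strand, with CCAAT matches of either strand in capitals. MSMO1 has 4 matches, SC5D has 1 and HSD17B7 has 2. A match is a string of letters and does not show binding.
SC5D: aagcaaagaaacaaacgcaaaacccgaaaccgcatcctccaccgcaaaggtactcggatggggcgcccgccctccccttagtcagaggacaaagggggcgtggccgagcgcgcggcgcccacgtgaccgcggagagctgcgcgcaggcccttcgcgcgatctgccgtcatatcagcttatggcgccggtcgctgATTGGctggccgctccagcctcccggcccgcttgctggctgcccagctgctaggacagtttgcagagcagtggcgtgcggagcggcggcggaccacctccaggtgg
MSMO1: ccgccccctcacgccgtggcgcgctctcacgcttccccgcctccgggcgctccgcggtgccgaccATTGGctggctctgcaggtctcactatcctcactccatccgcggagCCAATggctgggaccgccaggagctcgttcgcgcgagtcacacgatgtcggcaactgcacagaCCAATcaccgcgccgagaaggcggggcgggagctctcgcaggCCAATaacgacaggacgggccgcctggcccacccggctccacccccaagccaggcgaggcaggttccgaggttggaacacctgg
HSD17B7: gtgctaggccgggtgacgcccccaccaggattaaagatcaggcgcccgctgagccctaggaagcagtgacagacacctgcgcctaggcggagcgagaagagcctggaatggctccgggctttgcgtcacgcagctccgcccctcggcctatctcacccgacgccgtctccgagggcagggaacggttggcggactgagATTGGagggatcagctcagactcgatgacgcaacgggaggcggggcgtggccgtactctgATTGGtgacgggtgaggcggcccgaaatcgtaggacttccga

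Other genes of sterol and lipid handling did not all share the direction of the members. In the list of SREBP1 and fatty acid targets, 1 of 15 genes was higher and 3 were lower (15.4% and 13.2% of all genes tested). The median log2 fold change of this list was -0.17. SREBF1, which encodes the related factor SREBP1, had 38.4, 41.1 and 51.6 TPM in soft gel and 73.6, 97.1 and 113 TPM on the rigid dish. It was lower in every soft gel library and fell, with a log2 fold change of -1.33 (SE 0.233, adjusted p = 0.00458 by edgeR), kept in all alternatives. The TPM of SREBF2 was 1.54, 1.79 and 1.6 times that of SREBF1 in soft gel and 0.737, 0.541 and 0.507 times on the rigid dish.

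FASN, the fatty acid synthase, fell (log2 fold change -0.45, edgeR adjusted p = 0.0406), and ACLY, which supplies acetyl-CoA, fell (-0.33, edgeR adjusted p = 0.0498). Both calls were lost on omitting rigid dish 2, rigid dish 3, soft gel 1 or soft gel 2 (FASN edgeR adjusted p up to 0.16), with upper quartile factors and on TPM values. The lipase gene PNPLA3 rose (0.69, edgeR adjusted p = 0.0221), and lost the call without the same 4 libraries (up to 0.0993). With upper quartile factors, or when any of these 4 libraries was left out, 1 gene of this list was lower in place of 3.

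In the list of sterol uptake, transport and storage, 7 of 17 genes were higher and 1 was lower (15.4% and 13.2% of all genes tested). The median log2 fold change of the list was 0.25. NPC2, which carries cholesterol inside lysosomes, averaged 291 ± 26.9 TPM in soft gel and 104 ± 20.6 TPM on the rigid dish (SD, n = 3 each). The log2 fold change was 1.36 (SE 0.181, adjusted p = 0.00159 by edgeR). NPC1, the lysosomal membrane protein that takes cholesterol from NPC2, had 52.9, 52.1 and 59.1 TPM in soft gel and 34.1, 32.4 and 32.4 TPM on the rigid dish, and rose (0.70, edgeR adjusted p = 0.0125; 0.0596 without rigid dish 2). The other genes of the list called higher were SOAT1 (0.51), SCARB1 (0.32), VLDLR (0.41), GRAMD1B (0.47) and OSBPL9 (0.61). The number higher was 2 on omitting any of rigid dish 2, rigid dish 3, soft gel 1 and soft gel 2, 4 with DESeq2 size factors and 3 on TPM values.

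Of 16 partners of endoplasmic reticulum degradation and processing (median log2 fold change 0.02), 2 rose and 2 fell (15.4% and 13.2% of all genes tested). PAQR3, a Golgi protein reported to anchor SCAP and SREBP there, rose to 45.5 ± 3.73 TPM in soft gel, against 25.9 ± 1.75 TPM on the rigid dish (SD, n = 3 each; log2 fold change 0.66, edgeR adjusted p = 0.00599). SEC24A, a coat protein of vesicles that leave the endoplasmic reticulum, rose (0.57, edgeR adjusted p = 0.0388). The ubiquitin-conjugating enzyme UBE2J2 (-0.49, edgeR adjusted p = 0.0254) and the ATPase VCP (-0.34, edgeR adjusted p = 0.0369) fell. The calls of SEC24A, UBE2J2 and VCP were lost on TPM values and on omitting any of rigid dish 2, rigid dish 3, soft gel 1 and soft gel 2, and that of VCP also with upper quartile factors.

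Of 14 nonsterol isoprenoid enzymes (median 0.10), 3 rose and 1 fell (15.4% and 13.2% of all genes tested). RABGGTB, a subunit of Rab prenyltransferase, had 93.1, 94.99 and 79.1 TPM in soft gel and 67.5, 40.3 and 29.5 TPM on the rigid dish, and rose (0.98, edgeR adjusted p = 0.00694). PGGT1B, a subunit of a protein prenyltransferase, rose (0.73, edgeR adjusted p = 0.0284), and COQ2, an enzyme of coenzyme Q synthesis, fell (-0.50, edgeR adjusted p = 0.0197). Both calls were lost on TPM values and on omitting any of rigid dish 2, soft gel 1 and soft gel 2, and that of PGGT1B also without rigid dish 3. ZMPSTE24, a protease that trims prenylated proteins, was the other gene called higher (0.43, edgeR adjusted p = 0.0303). Its call was lost on omitting any of rigid dish 2, rigid dish 3, soft gel 1 and soft gel 2 (edgeR adjusted p up to 0.13), without a low-count filter and on TPM values. Of 11 tested genes of oxysterol, LXR and efflux (median -0.12), 1 was higher and 0 were lower (15.4% and 13.2% of all genes tested). These counts were not stable, with 0 higher and 3 lower without a low-count filter and 1 higher and 4 lower without rigid dish 1. The gene called higher was CYP46A1, the brain cholesterol hydroxylase, at 0.13 to 0.31 TPM in soft gel and 0.06 to 0.2 TPM on the rigid dish (edgeR adjusted p = 0.028). Its call was lost in 5 of the 6 fits that left out 1 library, and it is named here after its value was seen.

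**Figure D5:**
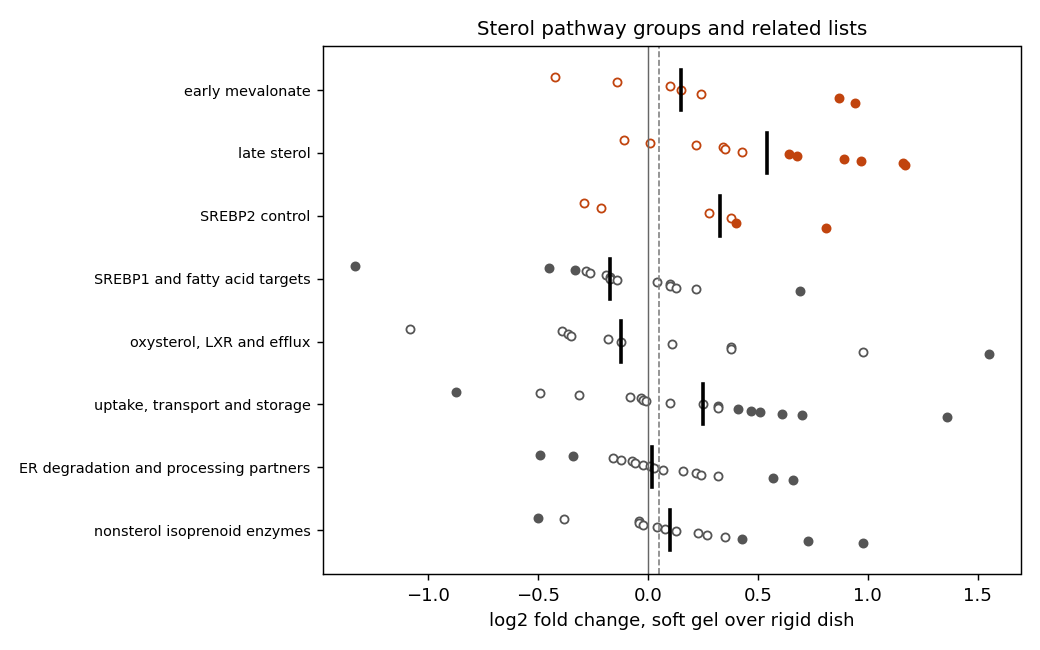
Log2 fold change, soft gel over rigid dish, of the tested genes of the early, late and control groups (red) and of 5 related lists (grey), with filled points for an adjusted p below 0.05, black bars at list medians and a dashed line at the median of all genes tested. The medians are 0.15 for early steps, 0.54 for late steps and -0.17 for SREBP1 and fatty acid targets.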

How the data were processed

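The authors deposited a table of RNA-seq values for the 6 libraries, holding estimated counts per gene (with decimals in 11.3% to 13.0% of genes per library) and TPM. It also holds the comparison the authors deposited, as a linear ratio, its log2 value and a p-value, raw and adjusted. HISAT2, HTSeq and hg38 are named in the submitters' processing notes, without roles or tool versions, and the sources used here do not give what produced the decimals. Per the labels' protocols, total RNA was isolated with TRIzol and converted with a TruSeq kit.

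Counts were rounded and scaled by TMM after low genes had been removed with filterByExpr, at a minimum count of 10. Groups were compared by the quasi-likelihood test in edgeR 4.0.16 (with limma 3.58.1 under R 4.3.3), on group only, with Benjamini-Hochberg adjustment over 16098 genes and a threshold of 0.05. SEs were derived from the test statistic, and the fit was tested on simulated data. A count of 0 allows up to 3 counts, or 0.116 to 0.143 CPM per library, for counting error only.

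The members and lists were chosen with earlier results of these data known. All 27 members are named, and from each related list up to 2 higher and 2 lower called genes with the largest change and a mean of 5 CPM or more. Other genes were named after their values were seen. Alternatives were scaling by DESeq2 size factors or by upper quartiles, no filter, 1 CPM in 3 libraries, a replicate block, each library left out, DESeq2 1.42.0, limma-voom, and limma on log2(TPM + 1) and log2(TPM + 0.1). Gene positions came from GENCODE release 29 (hg38), and promoter sequences from RefSeq. Results for some genes that this rule would name, or that belong to the pathway, are not reported here.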

Additional observations from a re-analysis of the deposited data

How the results depend on the processing

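The number of members called higher (11) lay between 10 and 12 with other scaling, other filters, DESeq2 and limma-voom, and was 7 with log2(TPM + 1) and 7 with log2(TPM + 0.1). Leaving out 1 library gave 5 to 12 members higher, where 6.13% to 19.6% of all genes were higher. It gave 0 to 3 members lower, where 797 of 16410 to 2925 of 16566 genes were lower, and the cause was not tested. The lower members were FDPS, SCAP and MBTPS1 without rigid dish 1, and FDPS and ACAT2 without soft gel 3. One member was lower (1 of 27) with DESeq2 size factors, without a low-count filter and with DESeq2, in each case FDPS. Of all genes, 2447 of 16098, 2814 of 29366 and 2736 of 29366 were lower in these 3 settings. Same-numbered libraries deviated together at correlations of 0.217, 0.00912 and 0.307, and differently numbered ones at -0.295 to 0.137. These values do not settle whether the numbers mark pairs. The labels do not say that they do, so the main test did not pair the libraries. With the replicate block 16 members were higher and 1 was lower, where 21.7% of all genes were called higher and 2943 of 16098 lower. Soft gel 2 did not correlate best with its own number. The medians stayed positive in every alternative, at 0.06 to 0.24 for the early steps and 0.37 to 0.61 for the late ones. Of 405 single member values under the alternatives, 353 kept direction and side of the threshold, 26 lost a call, 19 gained one and 7 turned sign without a call. The turned ones were EBP (-0.03 with DESeq2 size factors, -0.05 without a filter and with DESeq2, -0.02 without rigid dish 1, -0.04 without rigid dish 2 and -0.14 without soft gel 3) and MVD (-0.1 without soft gel 3). Leaving out 1 library gave -0.14 to 0.07 for EBP and -0.1 to 0.19 for MVD. The median of all genes (0.05) was 0.1 with log2(TPM + 1) and 0.13 with log2(TPM + 0.1).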

Other observations

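By CPM, soft gel 1 was the lowest soft gel library for 19 of 27 members, against 26.1% of all genes tested, and soft gel 3 was the highest for 17, against 39.3%. On the rigid dish, library 2 was the highest for 2 of 27 members, against 21.3% of all genes tested. In TPM, rigid dish 1 was the highest of its group for 20 of 27 members, against 64.5% of all genes tested.

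TPM and counts parted for ACAT2, which ran from 27.8 to 40.8 TPM on the rigid dish while its level there was 57.3 ± 1.83 CPM (SD, n = 3). In the authors' deposited table MBTPS2, called higher by edgeR here, did not pass (the authors' adjusted p = 0.0586), and FDPS was lower (the authors' adjusted p = 0.0202).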
